A study of Mus musculus with 12 samples.

Results

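Marrow progenitors labelled MPP were compared across all measured genes between mice labelled Tet2 knockout (KO) and wild type (WT). MPP stands here for multipotent progenitor, the name given in the descriptions, while the titles carry Lin in its place. The comparison rests on 4 of the 12 libraries of the series, 2 labelled KO and 2 WT, which were taken by their column names from the deposited table of raw counts. Of 24538 genes in that table, after its spike-in entries were set aside, 12947 passed a filter on low counts and were tested. All cells were sorted by flow cytometry from bone marrow of mice aged 10 weeks on a 129/C57/B6 mixed background. Marrow of 2 mice of a genotype was pooled, and the 2 libraries of a group are technical replicates of that pool. Errors and p-values therefore measure the spread between libraries of one pool, not between mice. A further genotype, a Tet2 mutant (Mut) prepared from the same number of pooled mice, was set against KO and WT and entered the estimate of the spread. The LSK fraction of the same 3 genotypes (Lin-negative, Sca-1-positive, Kit-positive cells by the usual meaning of the name), 2 libraries each, served to test whether the KO effect differed between the fractions. The sources used here give neither the targeted part of Tet2, nor the change in the Mut allele, nor the sorting gates.

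Tet2 encodes a dioxygenase that oxidises 5-methylcytosine in DNA, the opening step of active demethylation, and its loss in blood cells is known for expanding stem and progenitor cells and for skewing their output towards myeloid cells. Multipotent progenitors lie below the stem cell and feed the granulocyte, monocyte, erythroid, megakaryocyte and lymphoid branches. On the erythroid branch the factors GATA1 and KLF1 switch on heme synthesis and the red cell membrane proteins. On the granulocyte branch the proteases and peroxidases of the granules are made early, in progenitors, and are useful there as marks of commitment.

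The 4 libraries held 10794823 to 16052410 gene counts, and a gene with no count is limited to 0.187 to 0.278 CPM, the usual unit of counts scaled to library size (floor of 3 counts). They were alike in spike-in share (3.16% to 3.53% of counts) and in genes detected (13597 to 13687). Across genes, the 2 WT libraries correlated at r = 0.9591 and the 2 KO libraries at r = 0.9605, on log2 of CPM plus 1, and WT with KO libraries at 0.9529 to 0.9544. Defining genes of early progenitors were present, with Kit at 167 to 223 CPM, Cd34 at 213 to 262, Flt3 at 74.9 to 93.2 and Cd48 at 139 to 174. Of the stem cell genes, Procr was low (2.23 to 3.36 CPM) and Mecom (0 to 0.0945 CPM) was under the floor. The 26 genes of a stem cell list summed to 641 and 608 CPM in WT and to 536 and 582 CPM in KO. Genes of committed cells were far more abundant. Mpo, the myeloperoxidase of neutrophil granules, took 28543 to 35988 CPM, Prg2, the major basic protein of eosinophil granules, 4283 to 7292 CPM, and Car1, a carbonic anhydrase of erythroid progenitors, 1332 to 2097 CPM. The libraries thus held RNA of committed granulocytic and erythroid progenitors beside that of earlier cells, whatever the label says. Markers of other cells ranged from absent to moderate. The B cell factor Pax5 and the collagen gene Col1a1 were at 0, and the macrophage complement gene C1qa was at 0 to 1.04 CPM. The T cell receptor component Cd3g was at 11.6 to 25.2 CPM, the NK cell receptor gene Ncr1 at 24.4 to 39.4 CPM, and Vcam1, of stroma and marrow macrophages, at 31.2 to 105.8 CPM. A list of 20 T and NK cell genes summed to 1667 and 1777 CPM in WT and to 1359 and 1317 CPM in KO. Most of this sum came from Nkg7 (968 to 1306 CPM), a cytotoxic granule gene also counted in the granulocyte-monocyte progenitor list used below. The sum is therefore no measure of T and NK cell RNA alone. A list of 17 dendritic cell and MHC class II genes summed to 1103 and 1209 CPM in WT and to 958 and 930.3 CPM in KO. Among neutrophil genes, S100a8 was at 1341 to 1409 CPM while the surface gene Ly6g of mature cells was at 0 to 1.32 CPM. In bulk RNA of this kind, fewer cells of a type and less RNA per cell cannot be told apart.

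The count of Tet2 itself did not set the groups apart. Tet2 (chromosome 3, 133463679 to 133545139 of GRCm38, minus strand) stood at 37.8 and 27.8 CPM in the WT libraries and at 33.0 and 33.0 CPM in those labelled KO. Its fitted log2 difference was 0.01 (SE 0.268, edgeR adjusted p = 0.999). The table gives 1 count per gene and no value by exon, so an allele that lacks an exon but is still transcribed would not show here. Tet1 (log2 -0.32, adjusted p = 0.935) and Tet3 (log2 -0.26, adjusted p = 0.872), the related dioxygenases, did not pass the test either. In the LSK fraction, Tet2 was at 87.3 and 62.7 CPM in WT and at 29.2 and 31.7 CPM in KO (log2 -1.30, SE 0.287, adjusted p = 0.0460 in the fit of all 12 libraries). The difference between the MPP and LSK values did not pass the test (1.31, SE 0.402, adjusted p = 0.198). Because the MPP counts do not bear out the label, every direction below is that of the libraries labelled KO.

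Of the 12947 genes, 47 passed an adjusted p of 0.05 (0.363%), 28 higher (0.216%) and 19 lower (0.147%) in the libraries labelled KO. The higher genes were led in number by those of red cell membranes and heme synthesis, and the lower ones by granule genes of neutrophils, basophils and eosinophils. For each of the 47, the KO libraries lay outside the range of the WT libraries. Such a separation is common with 2 libraries a group, since 2569 genes (19.8%) lay entirely higher and 2644 (20.4%) entirely lower in KO. At an unadjusted p of 0.05 the number was 1097 (8.47%), 496 higher (3.83%) and 601 lower (4.64%). The median log2 difference over all genes tested was -0.01, and the median absolute difference 0.29. With libraries scaled by spike-ins in place of gene counts, 15 genes passed, 12 higher and 3 lower, and the median moved by 0.06. The test has little reach for weakly expressed genes, where the libraries of a group differed most.

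**Figure D1:**
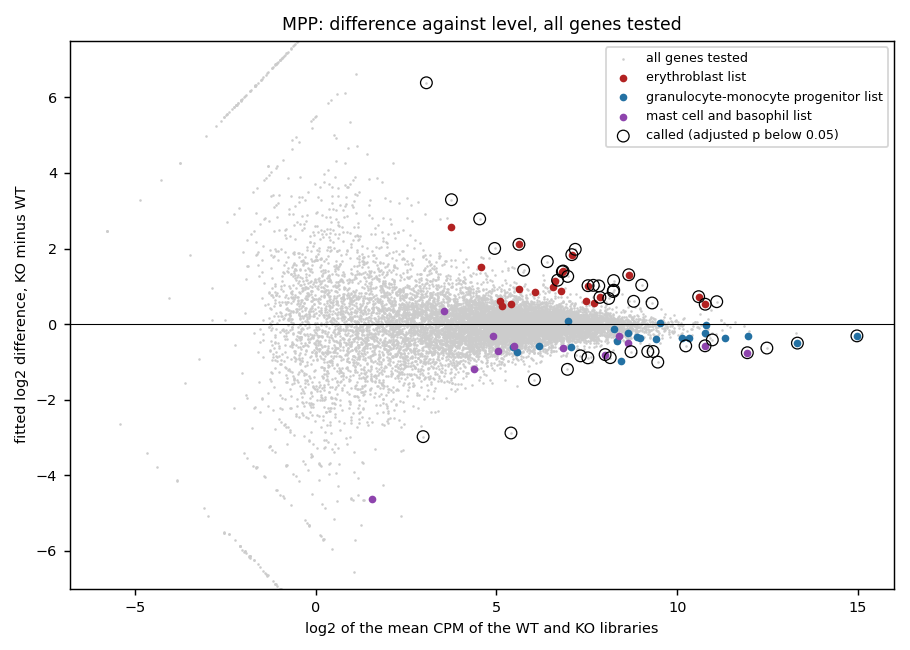
Fitted log2 difference (labelled KO minus WT) against log2 of the mean CPM of the WT and KO libraries, one point per gene tested; colours mark 3 gene lists and open circles the 47 genes with an adjusted p below 0.05. The erythroblast genes lie above 0 over their whole range of levels, most granulocyte-monocyte and mast cell and basophil genes lie below it, and Mpo is the point at the far right; 98 genes fall outside the vertical range shown.

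Genes of the erythroblast rose in the libraries labelled KO. Of 21 tested members of an erythroblast list, 9 rose and 0 fell, 18 were higher and 0 lower at an unadjusted p of 0.05, and all 21 had a log2 difference above 0, with a median of 0.93 against -0.01 for all genes. The summed level of the list was 3865 and 4213 CPM in the WT libraries and 6972 and 6896 CPM in the KO libraries. The count of 9 became 16 with DESeq2, 17 with no filter, 5 under spike-in scaling or a replicate block and 1 at a 1.5-fold threshold. It was 3 without WT replicate 1, KO replicate 1 or KO replicate 2, and 6 without WT replicate 2 or with the 4 libraries alone. How far a larger share of erythroid cells in the sort takes part in this was not tested. The 6 globin entries (Hba-a1, Hba-a2, Hbb-b1, Hbb-b2, Hbb-bs and Hbb-bt), whose sequences are near-identical in pairs, were listed at 0 in all 4 libraries and could not be used.

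Among regulators of the lineage, Klf1 passed the test. Klf1 (chromosome 8, 84901928 to 84905291), the factor that activates globin and red cell membrane genes, was at 174 and 180.1 CPM in WT and at 280.2 and 297 CPM in KO. The KO libraries were higher by 1.63-fold (log2 0.71, SE 0.108, adjusted p = 0.0452), without overlap but close to the threshold. Epor, the receptor of erythropoietin, stood at 61.6 and 94.5 CPM in WT and at 128 and 155 CPM in KO, and did not pass (log2 0.86, adjusted p = 0.287). Of 16 transcription factors shared by the erythroid and megakaryocyte branches, Klf1 was the 1 called, and the median difference of that list was -0.10. Klf1 is counted in the erythroblast list as well.

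Proteins of the red cell membrane and its skeleton gave the larger differences. Slc4a1 (chromosome 11, 102348824 to 102366203), the band 3 anion exchanger, was at 62.6 and 56.1 CPM in WT and at 228 and 197 CPM in KO. Both KO libraries were thus more than 3 times as high as either WT library, a 3.57-fold difference (log2 1.84, SE 0.158, adjusted p = 0.00298). Aqp1 (chromosome 6, 55336432 to 55348555), the water channel of red cells, was at 239 and 227 CPM in WT and at 611 and 540.0 CPM in KO. It was 2.47-fold higher (log2 1.31, SE 0.108, adjusted p = 0.00269). Add2, an adducin that ties spectrin to actin, was at 33.7 and 48.4 CPM in WT and at 114 and 143 CPM in KO (3.14-fold, adjusted p = 0.0293). Rhd, a Rh blood group protein, was at 125 and 119.7 CPM in WT and at 254 and 243 CPM in KO (2.02-fold, adjusted p = 0.0396). Cldn13, a claudin expressed in mouse erythroid cells, was at 62.9 and 62.5 CPM in WT and at 166 and 162 CPM in KO (2.61-fold, adjusted p = 0.0175). In all 5 of these genes the lower KO library lay above the higher WT library, as it did in 19.8% of all genes tested.

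Further membrane genes leaned the same way without passing the test. Kel, the Kell blood group metalloprotease, was at 55.1 and 67.3 CPM in WT and at 144 and 124 CPM in KO (log2 1.13, adjusted p = 0.0572). Rhag, the Rh-associated glycoprotein, was at 65.8 and 62.2 CPM in WT and at 119 and 133 CPM in KO (log2 0.98, adjusted p = 0.0600). Tspan33, a tetraspanin of erythroid progenitors, was the list member whose groups overlapped, with 40.6 and 18.6 CPM in WT and 40.4 and 41.9 CPM in KO. The abundant carbonic anhydrases moved by less but with small errors. Car2 was at 1127 and 1202 CPM in WT and at 1881 and 1968 CPM in KO (1.65-fold, log2 0.73, SE 0.0560, adjusted p = 0.00233). Car1 was at 1332 and 1539.8 CPM in WT and at 2097 and 2037 CPM in KO (1.44-fold, log2 0.53, SE 0.0747, adjusted p = 0.0334).

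Transcripts of the first, second and last enzymes of heme synthesis were higher in the libraries labelled KO. Alas2 (chromosome X, 150547375 to 150570638), the erythroid 5-aminolevulinate synthase that starts the pathway, was at 15.2 and 21.9 CPM in WT and at 90.6 and 69.4 CPM in KO. It was 4.32-fold higher (log2 2.11, SE 0.273, adjusted p = 0.0216). Alad, the dehydratase that follows it, was at 210.1 and 214 CPM in WT and at 358 and 320.0 CPM in KO (1.60-fold, log2 0.68, SE 0.105, adjusted p = 0.0481). Fech, the ferrochelatase that inserts iron into the ring, was at 156 and 146 CPM in WT and at 307 and 302 CPM in KO (2.01-fold, log2 1.01, SE 0.107, adjusted p = 0.0115). Uros, the uroporphyrinogen synthase between them, was higher in KO without passing, at 41.8 and 61.1 CPM in WT and 108 and 103 CPM in KO (log2 1.03, adjusted p = 0.186). Cpox was the enzyme of the pathway whose groups overlapped, with 168 and 61.1 CPM in WT and 158 and 138 CPM in KO. Alas2 is counted in the erythroblast list as well as in the heme and iron list. Of the 16 members of the latter, 3 rose and 0 fell, 13 were higher at an unadjusted p of 0.05, and the median log2 difference was 0.58. The count of 3 became 10 with DESeq2 and 9 with no filter, 1 with a replicate block, the 4 libraries alone or either WT library left out, and 0 without KO replicate 1, without KO replicate 2 or at a 1.5-fold threshold. Blvrb, the biliverdin reductase B of red cells, stands outside that list and was 1.86-fold higher (219.5 and 204 CPM in WT, 392 and 397 CPM in KO, adjusted p = 0.0117).

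**Figure D2:**
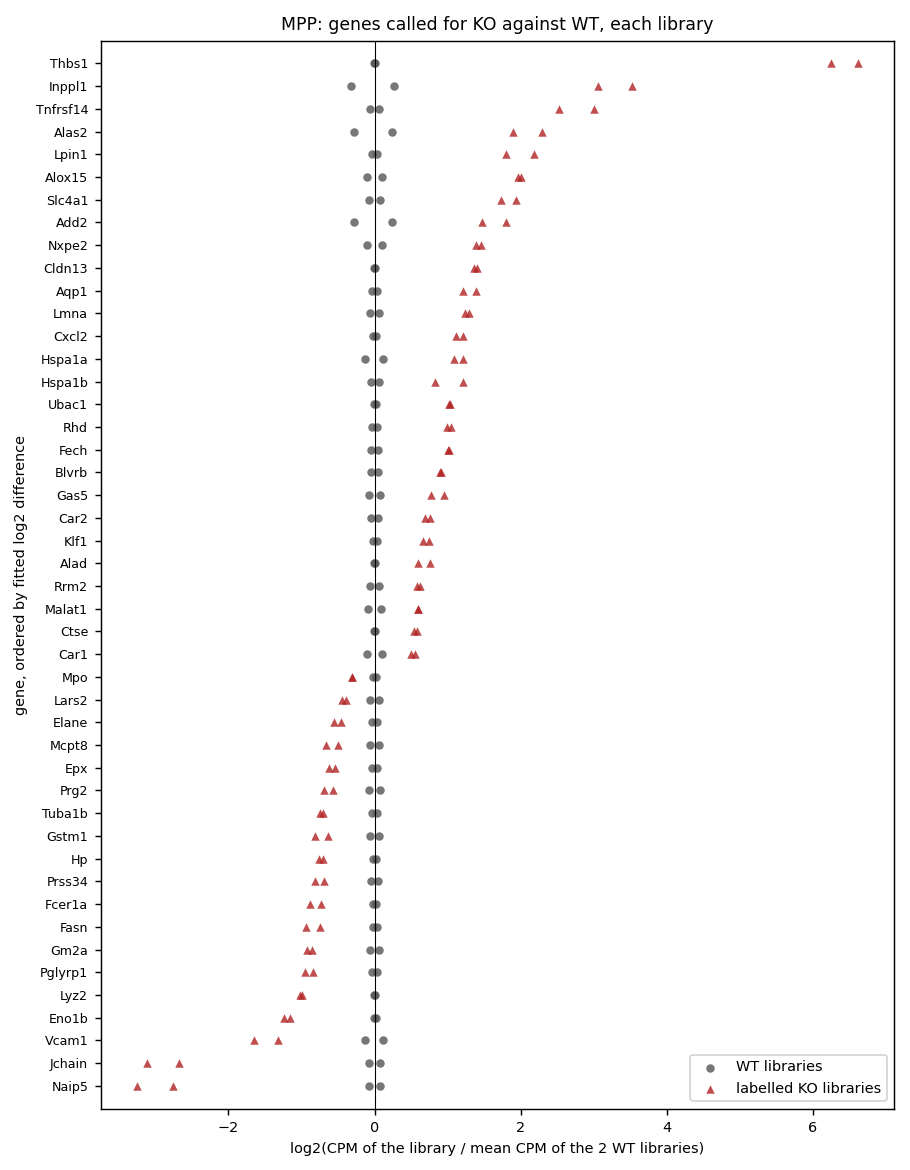
Level of 46 of the 47 genes in each of the 4 libraries, as log2 of its CPM over the mean CPM of the WT libraries; circles are WT and triangles libraries labelled KO, and genes are ordered by fitted difference. The circles lie within about the width of the symbols of 0 for most genes and spread most for Inppl1, Alas2 and Add2, while the triangles reach from above 6 at Thbs1 down to below -3 at Naip5.

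Promoter sequences are shown for the 3 genes called higher whose promoter held the GATA sequence, the known recognition element of the erythroid factor GATA1. They were picked by that match. Each run precedes the RefSeq start site (GRCm38.p6, plus strand, 5′ to 3′) and is cut where the GENCODE gene begins. Capitals mark AGATAA or TGATAA or their reverse complements. The Alas2 run is chrX:150547167-150547374, that of Klf1 chr8:84901732-84901927 and that of Rhd chr4:134864286-134864535. The marked letters begin 86, 80 and 43 bases before the respective RefSeq start sites.
Alas2: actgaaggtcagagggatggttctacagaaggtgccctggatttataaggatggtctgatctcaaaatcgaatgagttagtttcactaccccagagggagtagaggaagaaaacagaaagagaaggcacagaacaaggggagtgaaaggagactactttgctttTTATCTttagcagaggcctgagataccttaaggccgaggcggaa
Klf1: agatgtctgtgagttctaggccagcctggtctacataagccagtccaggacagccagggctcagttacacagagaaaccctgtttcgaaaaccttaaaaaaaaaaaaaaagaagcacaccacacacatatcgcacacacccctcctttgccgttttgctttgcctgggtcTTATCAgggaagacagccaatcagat
Rhd: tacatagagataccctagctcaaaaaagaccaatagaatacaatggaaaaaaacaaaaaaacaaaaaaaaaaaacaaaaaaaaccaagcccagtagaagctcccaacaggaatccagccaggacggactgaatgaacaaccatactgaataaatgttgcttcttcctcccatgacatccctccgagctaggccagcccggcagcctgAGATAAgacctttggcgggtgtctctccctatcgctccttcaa
Within 250 bases before the start site, these letters stood on either strand in 10 of the 15 promoters held for 14 tested erythroblast genes (66.7%), against 16.6% of all 32851 promoters and 10.1% of those of tested genes. Among the called genes, 19 of the 28 higher ones had a promoter in the table, and 3 of their 24 promoters (12.5%) held the letters. Of the 16 promoters of genes called lower, 3 (18.8%) held them. Kel, Rhag and Epor, which did not pass the test, hold the letters as well, and Aqp1, which rose, does not. A match describes the letters only and shows no binding.

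Granule genes of the granulocyte-monocyte progenitor were lower in the libraries labelled KO. Of 21 tested members, 2 fell (Mpo and Elane) and 0 rose, 16 were lower and 0 higher at an unadjusted p of 0.05, and the median log2 difference was -0.37. The list took 64493 and 67270.5 CPM in the WT libraries and 51597 and 52491 CPM in the KO libraries, and the part of cell composition in this was not tested. The calls rose in number to 11 with DESeq2 and 8 with no filter, and both were lost under spike-in scaling, where the log2 difference was -0.25 for Mpo and -0.44 for Elane, and at a 1.5-fold threshold. Mpo (chromosome 11, 87793581 to 87804413), the most abundant gene of the list, was at 35057 and 35988 CPM in WT and at 28543 and 28676 CPM in KO. The replicates lay close together, so that a 1.24-fold lower level passed the test (log2 -0.31, SE 0.0216, adjusted p = 0.00182). Elane (chromosome 10, 79886247 to 79888215), neutrophil elastase, was at 11729.7 and 12311 CPM in WT and at 8208 and 8752 CPM in KO, a 1.42-fold lower level (log2 -0.50, SE 0.0420, adjusted p = 0.00269).

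The sister proteases had values on the same side without passing. Prtn3, proteinase 3, was at 4159.8 and 4643 CPM in WT and at 3443 and 3665 CPM in KO (log2 -0.31, adjusted p = 0.154). Ctsg, cathepsin G, was at 2650.1 and 3124 CPM in WT and at 2308 and 2150.2 CPM in KO (log2 -0.37, adjusted p = 0.150). Hk3, a hexokinase of myeloid cells, had the widest difference of the list, with 486 and 432 CPM in WT and 193 and 275 CPM in KO (log2 -0.97, adjusted p = 0.0640). None of these 3 genes overlapped between the groups, but 20.4% of all genes tested lay entirely lower in KO.

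Promoters of the 2 called granule genes are shown with the letters GAGGAA or their reverse complement in capitals, a core of the element bound by the myeloid factor PU.1. The runs are chr11:87793534-87793580 for Mpo and chr10:79886062-79886246 for Elane (GRCm38.p6, plus strand, 5′ to 3′). The matches lie 247 and 224 bases before the RefSeq start site in Mpo and 85 bases before it in Elane.
Mpo: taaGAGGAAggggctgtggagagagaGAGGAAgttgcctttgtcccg
Elane: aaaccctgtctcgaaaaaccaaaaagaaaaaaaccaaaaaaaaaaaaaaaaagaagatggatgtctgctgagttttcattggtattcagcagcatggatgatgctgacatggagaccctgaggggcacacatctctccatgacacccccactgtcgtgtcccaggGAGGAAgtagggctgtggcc
These letters stood in 6 of 16 promoters of the genes that fell (37.5%) and in 4 of 24 of those that rose (16.7%), against 23.3% of all promoters. Of the 15 promoters of tested erythroblast genes, 5 (33.3%) held them as well, those of Alas2, Aqp1 and Rhd included.

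Genes of later neutrophils did not move as a group. Lyz2 (chromosome 10, 117277331 to 117282321), the lysozyme of granulocytes and macrophages, was at 935 and 949 CPM in WT and at 475 and 463 CPM in KO. It fell 2.01-fold (log2 -1.01, SE 0.0706, adjusted p = 0.00182). Pglyrp1, a peptidoglycan recognition protein stored in granules, was at 236 and 245 CPM in WT and at 124 and 134 CPM in KO (1.86-fold lower, adjusted p = 0.0323). Hp, haptoglobin, which myeloid progenitors make and which captures free hemoglobin, was at 533 and 520.4 CPM in WT and at 323 and 312 CPM in KO (1.66-fold lower, adjusted p = 0.0164). S100a8, a calcium-binding protein of neutrophils, overlapped between the groups, with 1341 and 1394 CPM in WT and 1385 and 1409 CPM in KO. Ngp, a protein of secondary granules, was higher in KO without passing, at 41.0 and 49.3 CPM in WT and 107 and 114 CPM in KO (log2 1.29, adjusted p = 0.117). In the late neutrophil list as a whole, 2 of 22 members fell (Lyz2 and Pglyrp1) and 0 rose, with a median of -0.07, whose sign changed under spike-in scaling and without WT replicate 1.

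Genes of basophils and mast cells were lower in KO. Of 12 tested members, 3 fell and 0 rose, 9 were lower and 0 higher at an unadjusted p of 0.05, and the median log2 difference was -0.61. The count of 3 became 5 with DESeq2 or no filter, and 1 under spike-in scaling, with the 4 libraries alone, without WT replicate 2 or without KO replicate 2, and 0 at a 1.5-fold threshold. The call kept under spike-in scaling was that of Prss34. Prss34 (chromosome 17, 25298394 to 25300165), the basophil protease also called mMCP-11, was at 4790.4 and 5079 CPM in WT and at 3039.8 and 2796 CPM in KO. It was 1.69-fold lower (log2 -0.76, SE 0.0498, adjusted p = 0.00182). Mcpt8 (chromosome 14, 56082166 to 56085273), another basophil protease, was at 1992 and 2186 CPM in WT and at 1481 and 1322 CPM in KO (1.49-fold lower, adjusted p = 0.0155). Fcer1a (chromosome 1, 173221284 to 173227214), the IgE-binding chain of the high-affinity IgE receptor, was at 333 and 322 CPM in WT and at 177 and 197 CPM in KO (1.75-fold lower, adjusted p = 0.0175). The groups of these 3 genes did not overlap, and 20.4% of all genes tested lay entirely lower in KO. Ms4a2, the beta chain of that receptor, was at 124 and 157 CPM in WT and at 89.7 and 90.9 CPM in KO (log2 -0.63, adjusted p = 0.237), and Cpa3, the mast cell carboxypeptidase, at 443 and 487 CPM in WT and at 327 and 329 CPM in KO (log2 -0.51, adjusted p = 0.0653). The connective tissue mast cell tryptases Tpsb2 and Tpsab1 were at 0 in all 4 libraries. The promoter of Prss34 (chr17:25298144-25298393, GRCm38.p6, plus strand, 5′ to 3′) is shown because it holds the same GATA letters as the erythroid genes, in capitals, 31 bases before the start site, although the 2 sets of genes moved in opposite directions.
Prss34: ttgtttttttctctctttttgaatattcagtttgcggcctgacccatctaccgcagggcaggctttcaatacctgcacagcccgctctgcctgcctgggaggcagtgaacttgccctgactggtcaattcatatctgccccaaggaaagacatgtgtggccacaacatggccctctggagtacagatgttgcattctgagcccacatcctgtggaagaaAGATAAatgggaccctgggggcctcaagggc

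Eosinophil genes split. Prg2 (chromosome 2, 84980461 to 84983632) was at 6597 and 7292 CPM in WT and at 4664 and 4283 CPM in KO, a 1.55-fold lower level (log2 -0.63, SE 0.0647, adjusted p = 0.00932). Epx (chromosome 11, 87864000 to 87875536), eosinophil peroxidase, was at 1414 and 1473 CPM in WT and at 996 and 939 CPM in KO, 1.49-fold lower (log2 -0.58, SE 0.0637, adjusted p = 0.0117). Alox15 (chromosome 11, 70344152 to 70352031), the 12/15-lipoxygenase, was on the eosinophil list and went the other way, from 62.7 and 54.7 CPM in WT to 228 and 235 CPM in KO. Its 3.94-fold rise (log2 1.98, SE 0.164, adjusted p = 0.00269) was shared by no other called member of that list. The same enzyme is known for breaking down organelles in maturing red cells. Ear1, an eosinophil ribonuclease, was at 169 and 167 CPM in WT and at 249.6 and 249 CPM in KO (log2 0.57, adjusted p = 0.142), and the Ear genes are near-identical copies among which counts can be split. Of the 11 tested members, 1 rose and 2 fell, and the median log2 difference was 0.27 although the summed level was lower in KO (8635 and 9414 CPM in WT, 6547 and 6078 CPM in KO). Both lower calls were lost under spike-in scaling (log2 -0.58 for Prg2 and -0.52 for Epx), without KO replicate 2 and at a 1.5-fold threshold, and that of Epx also without WT replicate 2 or KO replicate 1.

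**Figure D3:**
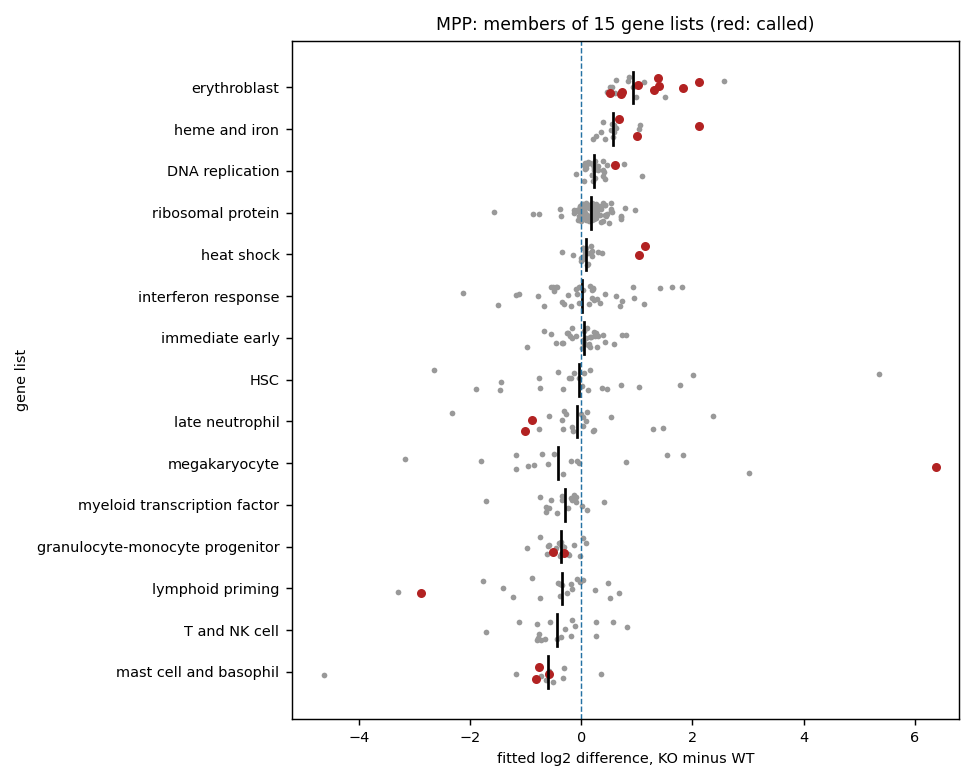
Fitted log2 difference (labelled KO minus WT) of each tested member of 15 gene lists; red points passed the test, grey points did not, and black bars are list medians. All erythroblast members lie above 0 with a median of 0.93, and the mast cell and basophil list has the lowest median shown, at -0.61.

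Of the lymphoid genes, Jchain was lower in KO. Jchain, which joins IgM and IgA subunits and is also transcribed in early progenitors (chromosome 5, 88519809 to 88527891), was at 78.2 and 70.8 CPM in WT and at 11.6 and 8.56 CPM in KO. The KO libraries were 7.38-fold lower (log2 -2.88, SE 0.216, adjusted p = 0.00232). Ccr9, a chemokine receptor of lymphoid precursors, was at 20.8 and 24.0 CPM in WT and at 7.38 and 5.76 CPM in KO (log2 -1.77, adjusted p = 0.154). Il7r, the interleukin-7 receptor, was at 40.8 and 27.2 CPM in WT and at 12.5 and 13.4 CPM in KO (log2 -1.40, adjusted p = 0.453), and Rag2, of the V(D)J recombinase, at 7.05 and 4.25 CPM in WT and at 0.766 and 0.369 CPM in KO (log2 -3.30, adjusted p = 0.292). Of 21 tested members of the lymphoid priming list, Jchain was the 1 called, 7 were lower and 0 higher at an unadjusted p of 0.05, and the median was -0.35.

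Several genes of other functions rose by 2-fold or more. Thbs1 (chromosome 2, 118111876 to 118127133), thrombospondin 1 of platelets, had 5 counts in the 2 WT libraries together and 460 in the KO libraries (0.190 and 0.189 against 14.4 and 18.7 CPM, fitted log2 6.39, adjusted p = 0.0283). Its size rests on the few WT counts, and it was the 1 called member of the megakaryocyte list, whose median was -0.41. Inppl1 (chromosome 7, 101822632 to 101838229), the inositol phosphatase SHIP2, was at 2.98 and 1.98 CPM in WT and at 28.5 and 20.6 CPM in KO (log2 3.29, SE 0.451, adjusted p = 0.0283). Tnfrsf14 (chromosome 4, 154921933 to 154928563), the herpesvirus entry mediator receptor, was at 5.65 and 6.14 CPM in WT and at 47.3 and 33.9 CPM in KO (log2 2.78, SE 0.331, adjusted p = 0.0163). Lpin1, a phosphatidate phosphatase, was at 12.6 and 12.1 CPM in WT and at 43.0 and 56.1 CPM in KO (4.005-fold, adjusted p = 0.0452). Lmna, which encodes lamins A and C of the nuclear envelope, was at 70.7 and 77.2 CPM in WT and at 174 and 181 CPM in KO (2.40-fold, adjusted p = 0.0267). Cxcl2, a chemokine for neutrophils, was at 64.6 and 63.2 CPM in WT and at 139 and 147 CPM in KO (2.24-fold, adjusted p = 0.0215), the 1 called gene among 27 of the inflammatory list. Nxpe2 was 2.69-fold higher (27.3 and 31.3 against 80.3 and 76.9 CPM, adjusted p = 0.0419).

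The inducible heat shock genes Hspa1a and Hspa1b, which encode near-identical Hsp70 proteins, rose together. Hspa1a was at 172 and 204 CPM in WT and at 401 and 434 CPM in KO (log2 1.15, adjusted p = 0.00923), and Hspa1b at 354 and 328 CPM in WT and at 602 and 791 CPM in KO (log2 1.03, adjusted p = 0.0336). Counts can be split between these copies, so they amount to 1 observation. The other 18 of the 20 heat shock genes tested did not pass, and the median of the list was 0.09. Among noncoding RNAs, Malat1, a nuclear RNA of splicing speckles, was 1.51-fold higher (1633 and 1849.6 against 2630.3 and 2622 CPM, adjusted p = 0.0119). Gas5, host of small nucleolar RNAs, was 1.82-fold higher (203 and 224 against 412 and 363 CPM, adjusted p = 0.0202). Ubac1, a ubiquitin ligase adaptor, was 2.04-fold higher (adjusted p = 0.0336), and Ctse, cathepsin E, 1.47-fold higher (adjusted p = 0.0276). Rrm2, the small subunit of ribonucleotide reductase that supplies deoxynucleotides, was at 339 and 367 CPM in WT and at 544 and 528 CPM in KO (1.52-fold, adjusted p = 0.0336). It was the 1 called among 32 DNA replication genes, of which 31 had a difference above 0 and 7 were higher and 0 lower at an unadjusted p of 0.05 (median 0.23). Its list neighbours Ccne1, cyclin E1, at 72.1 and 57.0 CPM in WT and 133 and 143 CPM in KO, and Mcm2, of the replicative helicase, at 658 and 625 CPM in WT and 869.9 and 822 CPM in KO, had adjusted p-values of 0.0730 and 0.0914. None of 26 mitosis genes was called by edgeR or DESeq2 (median 0.12), and 2 were higher at an unadjusted p of 0.05.

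Among the other genes that fell, Naip5 (chromosome 13, 100211739 to 100246323), a sensor of bacterial flagellin in the inflammasome, was at 14.7 and 13.2 CPM in WT and at 1.46 and 2.07 CPM in KO (log2 -2.98, SE 0.434, adjusted p = 0.0362). It belongs to a family of near-identical neighbours, so its count is uncertain. Vcam1 (chromosome 3, 116109949 to 116129688), an adhesion molecule of stroma and of marrow macrophages, was at 106 and 89.4 CPM in WT and at 39.2 and 31.2 CPM in KO (2.77-fold lower, adjusted p = 0.0460). It was the 1 called of 11 macrophage genes tested, of which 9 had a difference above 0 and 3 were higher at an unadjusted p of 0.05 (median 0.60), Adgre1 among them (log2 1.27, adjusted p = 0.556). Eno1b, an intronless copy of the enolase gene Eno1 with which reads can be shared, was at 172 and 176 CPM in WT and at 78.3 and 73.4 CPM in KO (2.29-fold lower, adjusted p = 0.0117). Tuba1b, an alpha-tubulin with close paralogs, was 1.65-fold lower (710.4 and 740.3 against 434 and 444 CPM, adjusted p = 0.0217). Fasn, fatty acid synthase, was 1.79-fold lower (202 and 209.6 against 108 and 122 CPM, adjusted p = 0.0394), the 1 called gene of 30 in cholesterol and fatty acid synthesis. Gm2a, the GM2 ganglioside activator of lysosomes, was 1.85-fold lower (adjusted p = 0.0155), and Gstm1, a glutathione transferase, 1.65-fold lower (adjusted p = 0.0202). Lars2, the mitochondrial leucyl-tRNA synthetase, was 1.34-fold lower (2204 and 2389 against 1745 and 1691 CPM, adjusted p = 0.0164). Its entry was grouped here with the noncoding RNAs, and whether its count reflects mRNA of the enzyme was not tested.

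Lists tied to Tet2 itself or to stem cells held no called gene by edgeR with the filter on low counts. This applied to 20 genes of the DNA methylation machinery (median -0.16), 19 TET partners (median 0.01), 43 Polycomb and trithorax genes (median -0.10), 23 stem cell genes (median -0.04) and 10 Hox and Meis genes (median -0.66). It applied as well to 40 interferon response genes (median 0.01), 35 immediate early genes (median 0.05), 84 ribosomal protein genes (median 0.17), 77 genes of oxidative phosphorylation (median 0.03) and 55 replication-dependent histone genes (median 0.45). At an unadjusted p of 0.05, 0 of the DNA methylation genes, 2 TET partners, 5 Polycomb and trithorax genes, 4 stem cell genes and 2 Hox and Meis genes passed in either direction. DESeq2 called 0 in these lists apart from 2 higher stem cell genes, and 1 higher gene each among the interferon, ribosomal protein and oxidative phosphorylation genes. With no filter, edgeR called 1 higher gene each among the stem cell, interferon and ribosomal protein genes. The medians of the stem cell, TET partner, interferon and oxidative phosphorylation lists lay near 0 and changed sign under at least 1 other setting, as did that of Hox and Meis without WT replicate 2.

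The libraries labelled KO were next compared with those of the Tet2 mutant, the other Tet2 allele of the series, whose 2 libraries held 23532847 and 15994489 gene counts and 4.89% and 5.15% spike-ins. This asks whether a value belongs to the KO label or to both alleles. Of 12947 genes, 31 passed (0.239%), 11 higher and 20 lower in KO than in Mut. Under spike-in scaling the median shifted by 0.65 and 3254 genes were called (3236 higher, 18 lower), so the directions here are relative to the bulk of genes. Mut against WT was not run under spike-in scaling, and levels of Mut above or below WT are likewise relative to the bulk of genes. The comparison of KO with Mut shares the KO libraries with that of KO against WT. KO and Mut share the WT libraries when each is set against WT. Of the 47 genes, 10 were also called for Mut against WT in the same direction. Higher in both were Alox15, Slc4a1, Car2, Tnfrsf14 and Gas5, and lower in both were Mpo, Elane, Prg2, Epx and Hp. For 11 of the 47, KO differed from Mut by the test in the direction of its difference from WT.

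The basophil and mast cell genes separated KO from Mut. Prss34 was at 7059.8 and 6726 CPM in Mut, above WT, against 3039.8 and 2796 CPM in KO. The value of KO minus Mut was -1.24 on the log2 scale (SE 0.0502, adjusted p = 6.52e-05). Mcpt8 was lower by -1.18 (log2, adjusted p = 0.000234) and Fcer1a by -1.54 (log2, adjusted p = 0.000508), and both were above WT in the 2 Mut libraries. Jchain was at 166 and 157 CPM in Mut and differed by -3.999 (log2, SE 0.224, adjusted p = 0.000234). For Lars2 the difference was -0.997 (log2, adjusted p = 0.00021) and for Naip5 -3.71 (adjusted p = 0.0158). Lower in KO than in Mut were also Fasn (log2 -1.03, adjusted p = 0.0160), Eno1b (log2 -1.07, adjusted p = 0.0170) and Lyz2 (log2 -0.67, adjusted p = 0.00923).

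The 2 eosinophil granule genes took the opposite order. Prg2 was at 3151 and 2869 CPM in Mut, lower than in KO, and the difference of KO from Mut was 0.57 (log2, SE 0.0647, adjusted p = 0.0132). For Epx, at 572 and 575 CPM in Mut, it was 0.75 (log2, SE 0.0639, adjusted p = 0.00306). In the erythroid group the named levels of Mut lay between WT and KO. Slc4a1 was at 169.8 and 144 CPM in Mut and Alas2 at 56.2 and 52.6 CPM, and the differences of KO from Mut did not pass (adjusted p = 0.424 and 0.553). Aqp1 (log2 0.80, adjusted p = 0.0305) and Blvrb (log2 0.68, adjusted p = 0.0449) were higher in KO than in Mut. With libraries scaled by gene counts, the median differences from WT of the erythroblast list were 0.93 in KO and 0.51 in Mut. Those of the mast cell and basophil list were -0.61 and 0.54, each set against the same WT libraries. For the granulocyte-monocyte progenitor list they were -0.37 in KO and -0.30 in Mut.

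**Figure D4:**
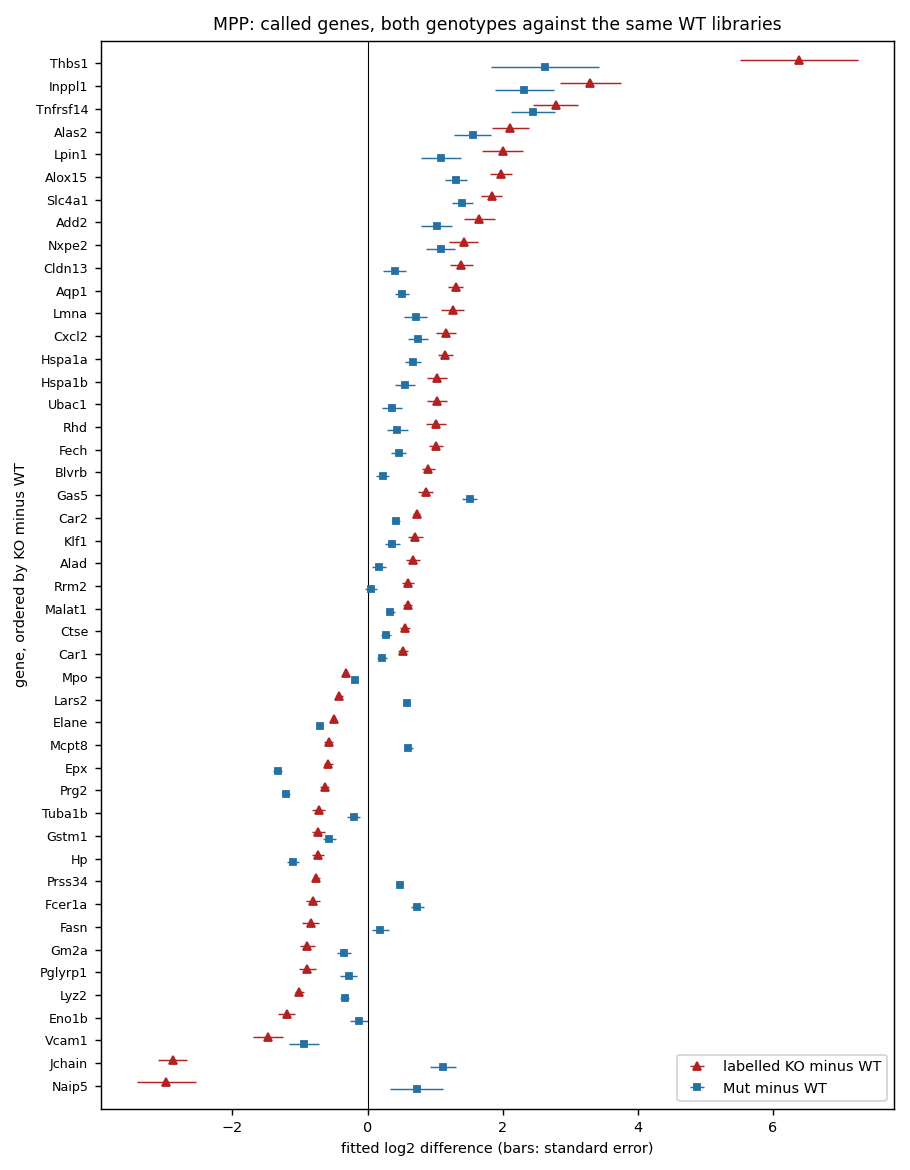
Fitted log2 difference from WT of 46 of the 47 genes in libraries labelled KO (red triangles) and Mut (blue squares), both against the same 2 WT libraries, with bars of 1 standard error. Libraries were scaled by gene counts. Prss34, Mcpt8, Fcer1a, Lars2, Jchain, Naip5 and Fasn lie on opposite sides of 0 in the 2 genotypes, and the erythroid genes lie above 0 in both.

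The same genotype comparison exists in the LSK fraction, and the difference of the KO effect between MPP and LSK was tested over 14033 genes in all 12 libraries. For 102 genes (0.727%) the effect differed, 22 with a higher and 80 with a lower effect in MPP, while spike-in scaling left 2, 0 higher and 2 lower. Among the 47 genes, which were chosen by their MPP difference and so by a part of this contrast, 8 differed. Mpo was lower in KO than in WT in MPP (log2 -0.31) and higher in LSK (log2 1.31), a difference of -1.62 (SE 0.0669, adjusted p = 3.33e-07). Lyz2 differed by -1.34 (SE 0.180, adjusted p = 0.0188). Jchain, in contrast, was lower in both, by -2.88 in MPP and -3.21 in LSK, and its effects did not differ by the test (0.33, SE 0.302, adjusted p = 0.735). The LSK WT libraries stand apart from the other LSK libraries in genes detected (12470 and 12614 against 13561 to 14264). Leaving out replicate 1 or 2 of LSK WT gave 813 and 903 genes, and leaving out any other library gave 4 to 50.

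The 47 genes did not depend on the libraries to the same degree. Without WT replicate 1 or 2, 22 and 19 genes were called, and without KO replicate 1 or 2, 13 and 10, while leaving out either Mut library gave 41. Prss34, Mpo, Lyz2, Jchain, Car2, Alox15, Aqp1, Elane and Slc4a1 kept their calls in each of these 6 fits. Hspa1a and Prg2 lost theirs without KO replicate 2. Rrm2, Naip5, Fasn, Nxpe2, Klf1, Vcam1 and Alad lost theirs in each of the 6 fits and stand close to the threshold. The other 29 lost theirs without 2 or more of the WT and KO libraries. No gene of the 47 changed sign under any of the 14 other settings tried, and Jchain, Alox15 and Slc4a1 were called in all 14. These 3 were also the genes whose difference exceeded 1.5-fold by a test of that size.

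**Figure D5:**
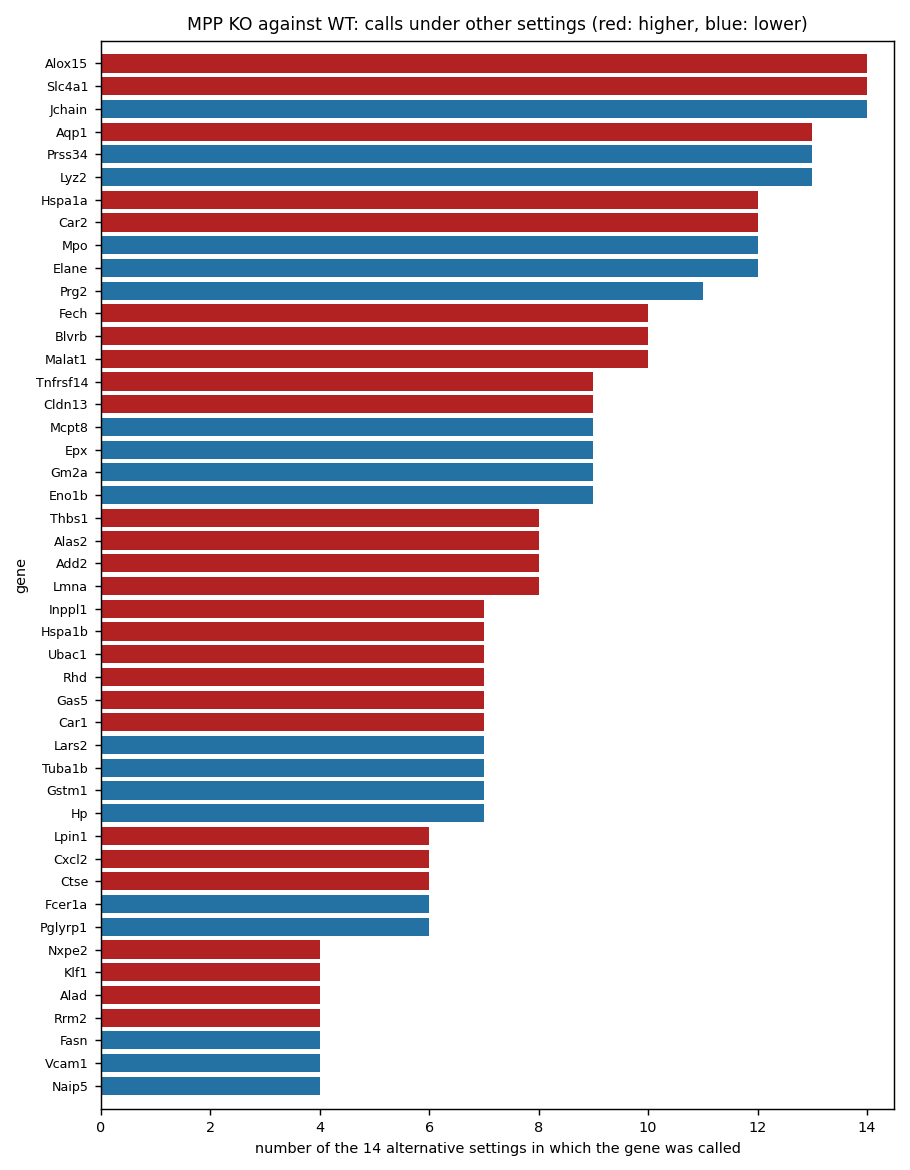
Number of the 14 other settings (scaling, filter, replicate term, libraries left out, threshold and DESeq2) in which each of 46 of the 47 genes was called, with red bars for genes higher and blue bars for genes lower in the libraries labelled KO. Alox15, Slc4a1 and Jchain reach 14, and the genes at the foot of the plot reach 4.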

How the data were processed

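Bulk RNA-seq counts were analysed for MPP cells sorted from pooled marrow. Per the labels' protocols, RNA was amplified and barcoded, ERCC spike-ins were added and 2 technical replicate libraries were made per genotype. The deposited values are raw counts per gene, made by the authors with Trim Galore 0.4.1, TopHat2 2.0.13 and HTSeq 0.6.1 on mm10, per the submitters' processing notes, which also name Cufflinks; annotation and strand setting are not given in the sources used here, so reads of a gene and an antisense partner cannot be told apart. One KO column carries a number that differs from its sample's title, and it was matched as the single title ending in Lin-KO-2.

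Genes were kept by filterByExpr (minimum count 10, total 15), scaled by TMM without spike-ins and tested with edgeR 4.0.16 (R 4.3.3, quasi-likelihood F test, two-sided, mean per group). CPM values use these scaled library sizes. The floor and the LSK levels of the genes flagged below use the plain totals. The 6 MPP libraries shared the spread, leaving 3 residual degrees of freedom. Genes were called at a Benjamini-Hochberg adjusted p below 0.05 over all genes tested, and a standard error is the log2 difference over the root of F. The difference between MPP and LSK was an interaction contrast over all 12 libraries (6 residual degrees of freedom). Replicates differed by more than sampling noise (chi-square per degree of freedom 27.69 in WT and 22.83 in KO) and were counted separately. The analysis was tested on simulated data.

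Named genes were the up to 15 higher and 15 lower called genes of largest difference with at least 100 counts on average in the higher group and no overlap, the 5 of smallest p in each direction, up to 6 called per list, the TET genes and cell markers. Blvrb, Ctse, Ubac1 and the uncalled genes other than markers were named after their values were seen. The comparison and all lists were chosen with earlier results of these data known, so they are no independent support. Positions are from GENCODE M21 (12673 of 12947 symbols matched) and promoters from RefSeq GRCm38.p6. Alternatives were RLE and spike-in scaling, no filter and a stricter one, a replicate block, 4 libraries alone, a 1.5-fold threshold, DESeq2 1.42.0 and leaving out each library. One called gene and some uncalled ones are not reported here by name and are left out of the figures that label genes, though counts and list medians include them.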

Additional observations from a re-analysis of the deposited data

Results flagged for a closer look

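For 8 of the 47 genes, the effect of the KO label differed between MPP and LSK by an interaction test (edgeR, adjusted p below 0.05, 0.727% of all genes called). The 47 were chosen by their MPP difference, which is part of this contrast, so their share cannot be set against that of all genes. The difference is given as the log2 effect in MPP minus that in LSK. LSK levels in this section are CPM on plain library totals. The replicates are technical, and the LSK WT libraries that enter each value stand apart in genes detected.

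Mpo differed by -1.62 (SE 0.0669, adjusted p = 3.33e-07): it fell in MPP, while in LSK it stood at 1571 and 1698 CPM in WT and at 4202 and 4072 CPM in KO. Lyz2 differed by -1.34 (SE 0.180, adjusted p = 0.0188), with 154 and 206 CPM in LSK WT and 233 and 231 CPM in LSK KO. Gstm1 differed by -0.91 (SE 0.155, adjusted p = 0.0370), at 109.8 and 100.3 CPM in LSK WT and 122 and 123 CPM in LSK KO. Malat1, with 12195 and 13097 CPM in LSK WT and 10401 and 10407 CPM in LSK KO, differed by 0.91 (SE 0.0914, adjusted p = 0.00273).

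For 3 genes the LSK WT libraries held 0 to 2 counts, so their fitted values depend on the prior count and are no bound. Prg2 differed by -11.1 (adjusted p = 9.05e-08), with 0 and 2 counts in LSK WT and 2610 and 1913 in LSK KO, a ratio of 1589 (95% counting interval 440 to 13122). Epx differed by -12.36 (adjusted p = 2.63e-07), with 0 counts in LSK WT and 544 and 403 in LSK KO, at least 222-fold higher with the summed WT count set to a floor of 3. Add2 differed by -8.28 (adjusted p = 0.0159), with 0 counts in LSK WT and 167 and 99 in LSK KO, at least 62.3-fold higher by the same floor. Nxpe2 rose in MPP and had 131 and 128 counts in LSK WT and 24 and 23 in LSK KO, a difference of 4.44 (SE 0.648, adjusted p = 0.0230).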

How the results depend on the processing

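The 47 calls of KO against WT became 15 under spike-in scaling, 189 with no filter, 26 with the 4 libraries alone, 3 above 1.5-fold and 276 with DESeq2, whose calls include all 47. Leaving out 1 library gave 10 to 41. The 31 calls of KO against Mut became 3254 under spike-in scaling, 195 with no filter, 8 above 1.5-fold and 302 with DESeq2, and 10 to 34 with 1 library left out. The 102 genes whose KO effect differed between MPP and LSK became 2 under spike-in scaling, 278 with no filter and 657 with DESeq2, and 4 to 903 with 1 library left out. The cause of these changes was not tested, except that leaving out a library leaves 1 sample in its group, assumed to vary like the others.

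Equal replicate numbers did not pair the libraries (correlation of deviations 0.0059 between KO and WT). With a replicate block, 23 genes were called for KO against WT, 26 for KO against Mut and 34 for MPP against LSK.

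Signs changed for uncalled genes when 1 library was left out. The log2 difference of Tet1 ranged from -1.38 to 0.28, that of Tet2 from -0.18 to 0.25, that of Tet3 from -0.59 to 0.0067 and that of Cpox from -0.17 to 1.27. Of the gene values recomputed, 743 kept direction and side of the threshold, 264 lost the call and 53 gained it. Of list medians, 511 moved by less than the spread between library pairs and 63 by more. A difference in a gene under the floor of 3 counts in both groups was not detectable at this depth.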
